A study of Mus musculus with 18 samples.

Results

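The enzymes that make NAD in the mouse kidney were examined after ischemia/reperfusion (I/R) injury. They were chosen by name, with earlier results of these data known. Shares of the 10 genes set against all genes are therefore a description and not independent support. *Kmo*, *Kynu*, *Haao*, *Qprt* and *Acmsd* are genes of the kynurenine route from tryptophan, and *Nampt* and *Naprt* of nicotinamide and nicotinic acid salvage. *Nmnat1* and *Nmnat3* serve the adenylyl transfer that these routes share. *Nadsyn1* serves the last step of the kynurenine and nicotinic acid routes. The 10 genes are 10 of the 45706 genes counted. RNA was sequenced from 18 whole kidneys of C57BL/6 mice, namely 5 KO and 3 control kidneys of a *Cxcl12* cohort and 5 KO and 5 control kidneys of a *Myc* cohort. All mice carried either *Cxcl12* or *Myc* with both alleles floxed (F/F) together with Pax8rtTA, and KO mice also carried TetOCre, which the controls lacked. Per the study's methods, controls and KO mice were adult male littermates and both received doxycycline. Pax8rtTA is active in tubule epithelium, so that cells of other types in the kidney keep the floxed gene and their RNA is part of each library. All mice underwent bilateral ischemia for 22.5 min, their kidneys were taken 12 h into reperfusion, and no uninjured kidney was analysed here.

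NAD carries electrons in glycolysis, in the citric acid cycle and in the respiratory chain, and it is consumed by sirtuins, by poly(ADP-ribose) polymerases and by CD38. Cells rebuild it from nicotinamide, where NAMPT is the rate-limiting enzyme, from nicotinic acid, where NAPRT acts first, and de novo from tryptophan. Besides the liver, the proximal tubule of the kidney is known for this de novo route. At its branch point an unstable intermediate is turned to the NAD precursor quinolinate, which QPRT uses, unless ACMSD takes the intermediate away towards oxidation.

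The reads assigned to genes ranged from 12918220 to 29749500 per kidney. Levels are given as normalized CPM, counts scaled to a common library total of reads on genes (CPM), after TMM scaling over all 18 kidneys. Each target gene lay lower in every KO kidney than in every control of its own cohort. The log2 fold change of *Cxcl12* was -0.73 (SE, standard error, 0.15, adjusted p = 0.094 by the quasi-likelihood test of edgeR) and that of *Myc* was -1.61 (SE 0.12, adjusted p = 8.8e-05 by the same test). Unmapped reads made up less than 5% in 6 kidneys, which were 2 KO and 0 controls of the *Cxcl12* cohort and 2 KO and 2 controls of the *Myc* cohort. The tissue label was checked on 8 proximal tubule markers, which were detected throughout and summed to between 3573 and 5575 CPM in every kidney. In the *Cxcl12* cohort 7 of the 8 lay lower in KO kidneys (3 with an unadjusted p under 0.05 in edgeR's test), and their summed level was 4017 to 4557 CPM in KO and 4690 to 5535 CPM in control kidneys. In the *Myc* cohort 7 of the 8 lay higher, with sums of 3573 to 5575 CPM in KO and 3871 to 4550 CPM in control kidneys.

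All 10 genes were detected in every kidney, with 18 to 5026 reads each, and all 10 passed the filter on low counts in every comparison. Per kilobase of exon, *Nampt* stood highest, with a mean of 31.9 CPM per kb over the 18 kidneys, 31.5% of the summed level of the 10 genes. It exceeded the next gene, *Kmo*, in 18 of 18 kidneys. *Kmo*, the kynurenine 3-monooxygenase, *Qprt* and *Haao*, the dioxygenase that makes the unstable intermediate, followed at 12.3, 12.0 and 12.0 CPM per kb. These 3 could not be ordered, since *Kmo* exceeded *Qprt* in 12 and *Qprt* exceeded *Haao* in 9 of 18 kidneys. *Naprt* had 10.8 CPM per kb and lay below *Haao* in 14 kidneys. *Acmsd* (6.57 CPM per kb), *Nadsyn1*, the NAD synthetase of the kynurenine and nicotinic acid routes (6.15 CPM per kb), and *Nmnat1*, which carries out the adenylyl transfer in the nucleus (5.32 CPM per kb), formed the next step. Within it *Acmsd* exceeded *Nadsyn1* in 10 kidneys and *Nadsyn1* exceeded *Nmnat1* in 15. *Nmnat3*, its mitochondrial relative, had 3.62 CPM per kb. *Kynu*, the kynureninase, was lowest by far at 0.684 CPM per kb, below *Nmnat3* in 18 of 18 kidneys.

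**Figure D1:**
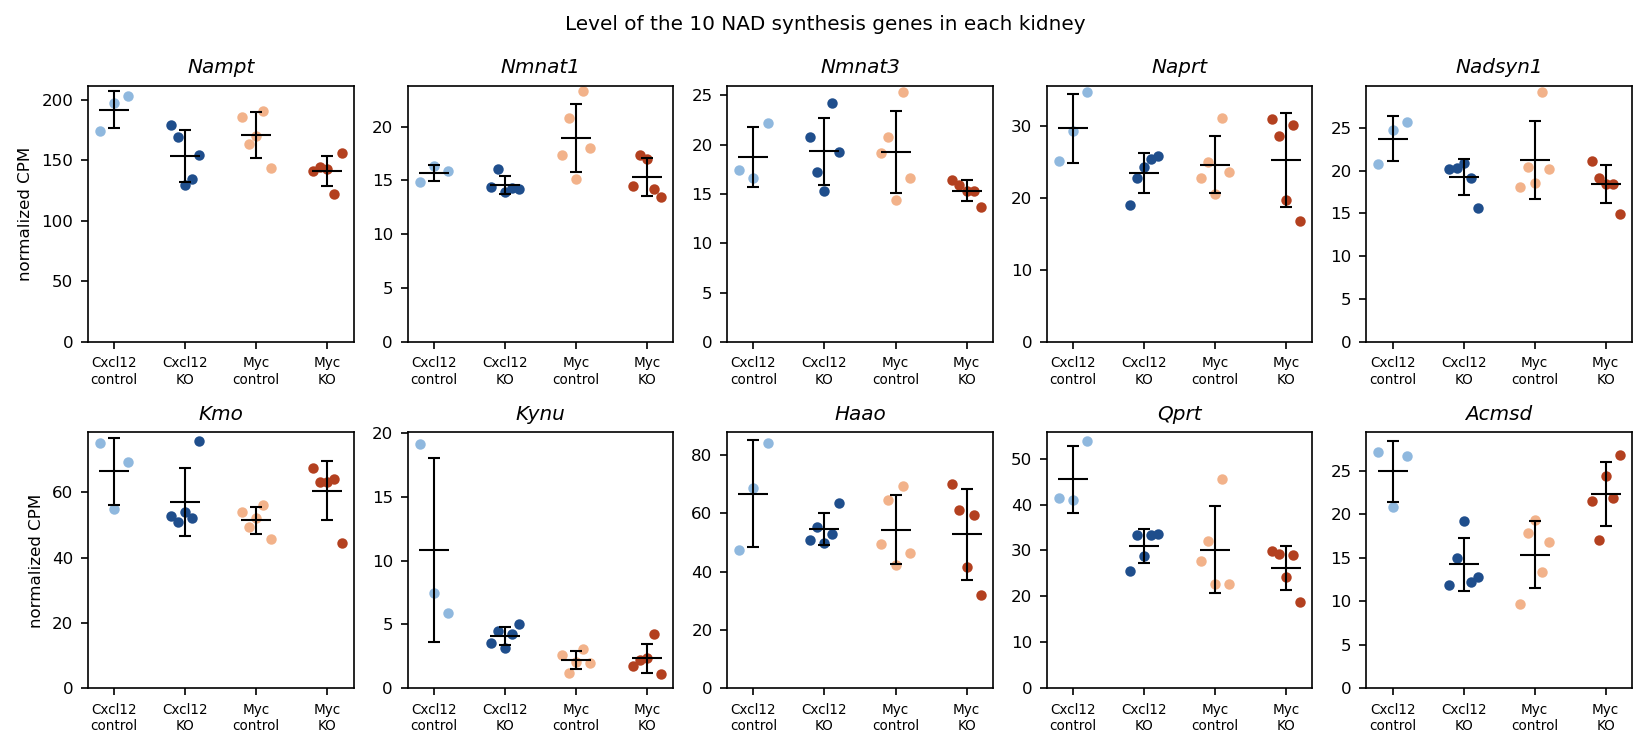
Normalized CPM of the 10 NAD synthesis genes in the 4 groups, with 1 point per kidney and the mean and SD of each group as black bars. *Nampt* lies between 122.1 and 203.3 CPM, and *Kynu* does not exceed 5.02 CPM outside the 3 *Cxcl12* control kidneys.

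The stretch before the RefSeq start of transcription is shown for *Nampt* of the salvage route, for *Qprt* of the kynurenine route and for *Parp1*. The last is the polymerase that consumes NAD. It was picked for its result, as the one gene of the wider pathway that passed edgeR's adjusted test, in the *Myc* cohort. Its adjusted p stayed under 0.05 in 6 of 18 alternatives. Its log2 fold change was -0.35 in that cohort and -0.33 in the *Cxcl12* cohort. *Myc* encodes a factor that binds the E-box CACGTG and its variant CACGCG, so both were searched on both strands, beside the GC box GGGCGG. Each line gives the 250 bases before the RefSeq start on GRCm38.p6, 5′ to 3′ on the strand of the gene, with the matches in capitals. They lie at chr12:32820085-32820334 on the plus strand for *Nampt*, at chr7:127122030-127122279 on the minus strand for *Qprt*, and at chr1:180568641-180568890 on the plus strand for *Parp1*. In GENCODE *Nampt* starts further upstream, at 32819545, so its window lies inside that gene. *Qprt* starts there at 127122226, so most of its window is inside the gene too. Only the *Parp1* window lies wholly before the GENCODE start, at 180568924.
Nampt: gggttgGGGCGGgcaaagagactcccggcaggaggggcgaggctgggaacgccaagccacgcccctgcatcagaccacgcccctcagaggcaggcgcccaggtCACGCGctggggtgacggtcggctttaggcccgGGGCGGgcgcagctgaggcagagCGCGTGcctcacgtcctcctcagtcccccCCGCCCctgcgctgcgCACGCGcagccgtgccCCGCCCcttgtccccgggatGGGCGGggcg
Qprt: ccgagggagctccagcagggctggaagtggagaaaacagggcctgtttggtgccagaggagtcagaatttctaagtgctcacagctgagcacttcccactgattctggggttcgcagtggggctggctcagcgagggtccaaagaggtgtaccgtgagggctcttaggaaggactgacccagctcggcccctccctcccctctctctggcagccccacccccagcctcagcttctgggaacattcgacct
Parp1: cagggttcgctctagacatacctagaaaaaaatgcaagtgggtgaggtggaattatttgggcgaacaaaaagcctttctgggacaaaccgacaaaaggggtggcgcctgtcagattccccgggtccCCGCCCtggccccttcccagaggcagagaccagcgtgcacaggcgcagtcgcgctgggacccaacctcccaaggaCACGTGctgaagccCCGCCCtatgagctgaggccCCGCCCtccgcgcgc
The *Nampt* window was 75.6% GC, held 27 CG dinucleotides, and had CACGCG 3 times and GGGCGG 5 times, with no CACGTG. The *Parp1* window had CACGTG 1 time and GGGCGG 3 times at 61.6% GC. The *Qprt* window (60.8% GC, 6 CG) had none of the 3 motifs. Of 32851 such windows in the RefSeq table, 6.02% held CACGTG, 7.62% CACGCG and 32.7% GGGCGG, and the median window was 52.4% GC with 6 CG. Of the 10 genes 8 were in that table, and motif counts are given only for *Nampt* and *Qprt* of them. No pattern over the 10 genes can therefore be read from these counts. These matches are a description of letters, binding was not measured here, and a link of motifs to KO effects was not tested.

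The first comparison asked which of the 10 genes differ when the tubule lacks *Cxcl12*, the gene of a chemokine. The clearest differences were in 3 genes of the kynurenine route, since *Acmsd*, *Qprt* and *Kynu* were each lower in all 5 KO kidneys than in all 3 controls. No gene was higher in this way, and 9 of the 10 log2 fold changes were below 0 (49.8% of all genes), with a median of -0.32 against 0.00083 over all 15154 genes tested. After adjustment over all genes, 0 of the 10 passed edgeR and 0 passed limma-voom, while 3 passed DESeq2, all lower. The background of these calls was 0% of genes for edgeR and 1.37% of genes, lower, for DESeq2. With an unadjusted p under 0.05 in edgeR's test there were 6 of the 10, all lower, against 6.63% of all genes lower. KO kidneys below every control were found in 3 of the 10, against 4.72% of all genes. Since the libraries are of whole kidneys, fewer cells of a type and less RNA per cell cannot be told apart in these values.

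*Acmsd*, the decarboxylase that draws the intermediate away from NAD, had 11.9, 15.04, 19.3, 12.3 and 12.8 CPM in *Cxcl12* KO kidneys 1 to 5. It had 27.2, 20.9 and 26.8 CPM in control kidneys 1 to 3. The highest KO kidney, number 3, therefore stayed just under the lowest control. The log2 fold change of *Acmsd* was -0.82 (SE 0.16, -42.9% in mean level). Its adjusted p was 0.094 in edgeR and 0.0015 in DESeq2, with a range from 0.0015 to 0.31 over 16 alternatives. By its p-value *Acmsd* ranked 60th of 15154 genes, with the same adjusted p as *Cxcl12* itself. Of the 2831 exon bases of *Acmsd*, 94 are shared with the antisense gene 2900009J06Rik, and the counts ignore the strand.

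*Qprt*, which turns quinolinate into the mononucleotide on the way to NAD, had 25.6, 33.4, 28.8, 33.4 and 33.6 CPM in KO kidneys 1 to 5. Controls 1 to 3 had 41.5, 41.0 and 53.9 CPM. The groups were well apart, and 3 of the KO kidneys were nearly equal. The log2 fold change of *Qprt* was -0.56 (SE 0.12, -31.9% in mean level). Its adjusted p was 0.11 in edgeR and 0.0073 in DESeq2, with a range from 0.0073 to 0.29 over 16 alternatives.

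*Kynu*, which cleaves 3-hydroxykynurenine, had 3.57, 4.47, 3.19, 4.27 and 5.02 CPM in KO kidneys 1 to 5. Controls 1 to 3 had 19.1, 7.43 and 5.92 CPM. Control 1 alone was far above the rest, and the other controls lay only slightly above the highest KO kidney. A log2 fold change of -1.40 (SE 0.33) had an adjusted p of 0.12 in edgeR and 0.0050 in DESeq2, with a range from 0.0050 to 0.41 over 16 alternatives, and was -0.70 without *Cxcl12* control 1. The counts of *Kynu* were low, 41 to 118 reads in KO and 99 to 346 reads in control kidneys.

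The salvage enzymes and *Nadsyn1* differed less. *Nampt* had 178.8, 169.2, 129.4, 134.5 and 154.3 CPM in KO kidneys 1 to 5 and 174.2, 197.6 and 203.3 CPM in controls 1 to 3. All 5 KO kidneys lay below the control mean of 191.7 CPM, but KO kidney 1 lay above control 1. On the log2 scale the fold change of *Nampt* came to -0.33 (SE 0.12, edgeR adjusted p = 0.30). *Naprt* and *Nadsyn1* behaved alike in size, with log2 fold changes of -0.35 and -0.31 (edgeR adjusted p = 0.30 and 0.32) and every KO kidney below the control mean. *Naprt* shares 277 of its 2344 exon bases with the neighbouring *Eef1d* on the same strand. The enzymes of adenylyl transfer showed little, with log2 fold changes of -0.11 for *Nmnat1* and 0.043 for *Nmnat3* at SEs of 0.098 and 0.15. The other genes of the kynurenine route, *Kmo* (-0.22) and *Haao* (-0.29), also overlapped between the groups, with edgeR adjusted p-values of 0.54 and 0.45. *Haao*, which acts between *Kynu* and the branch point, was at -0.098 without *Cxcl12* control 3 and at -0.49 without control 1.

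Without the 2 KO kidneys that had under 5% of reads unmapped, the log2 fold changes were -0.78 for *Acmsd*, -0.52 for *Qprt*, -1.39 for *Kynu* and -0.47 for *Nampt*, with edgeR adjusted p-values from 0.11 to 0.22. No *Cxcl12* control had so few unmapped reads, so that no comparison can be made within the deeper libraries. The proximal tubule markers lay lower, as these 3 genes did, and 1 of the 8, *Slc5a12*, a transporter of monocarboxylates, had a log2 fold change of -0.81 (adjusted p = 0.13 in edgeR and 0.011 in DESeq2). The neutrophil markers lay the other way, 3 of 3 higher in *Cxcl12* KO kidneys with an unadjusted p under 0.05 in edgeR's test, at summed levels of 23.2 to 97.9 CPM in KO and 14.7 to 20.3 CPM in control kidneys. The tubular injury markers lay higher in 3 of 3, with sums of 2536 to 3051 CPM in KO and 1571 to 2368 CPM in control kidneys, and 1 of them, *Lcn2*, had a log2 fold change of 0.84 (adjusted p = 0.11 in edgeR and 0.00086 in DESeq2). Their part in the differences of the NAD genes was not tested.

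The second comparison asked the same of *Myc*, which encodes a transcription factor of growth and metabolism. Here *Acmsd* was higher, and *Nampt* and both genes of adenylyl transfer were lower, by smaller amounts and with overlap between the groups in all 10 genes. Of the 10, 0 passed edgeR after adjustment and 0 passed limma-voom, while *Acmsd* passed DESeq2 as higher. The background was 1.65% of 14936 genes for edgeR and 3.76% of genes, higher, for DESeq2. An unadjusted p under 0.05 in edgeR's test was found in 5 of the 10, 3 lower and 2 higher, against 11.2% of all genes lower and 10.6% higher. KO kidneys clear of all controls were found in 0 of the 10, against 5.97% of all genes. The median log2 fold change of the 10 genes was -0.12, and it was 0.026 without *Myc* control 4.

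*Acmsd* had 21.5, 17.0, 24.5, 21.9 and 26.8 CPM in *Myc* KO kidneys 1 to 5 and 9.67, 17.8, 19.3, 13.4 and 16.8 CPM in *Myc* control kidneys 1 to 5. All 5 KO kidneys lay above the control mean of 15.4 CPM, and 4 of them lay above every control. The log2 fold change was 0.54 (SE 0.18, a mean level 45.1% above control). Its adjusted p was 0.12 in edgeR and 0.048 in DESeq2, with a range from 0.048 to 0.25 over 18 alternatives. Among the kidneys with 5% or more of reads unmapped, the log2 fold change of *Acmsd* was 0.34.

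*Nampt* had 140.9, 144.3, 142.6, 122.1 and 155.7 CPM in *Myc* KO kidneys and 186.1, 163.7, 170.1, 191.0 and 143.6 CPM in *Myc* control kidneys. Control 5 sat among the KO kidneys, and the other 4 controls lay above all of them. For *Nampt* the log2 fold change was -0.27 (SE 0.093, edgeR adjusted p = 0.13) and -0.28 among the kidneys with 5% or more of reads unmapped. *Nmnat1* (log2 fold change -0.30, SE 0.13) and *Nmnat3* (log2 fold change -0.32, SE 0.14) had every KO kidney below the control mean, with edgeR adjusted p-values of 0.19 and 0.20. *Nmnat3* spanned 13.7 to 16.5 CPM in *Myc* KO and 14.4 to 25.4 CPM in *Myc* control kidneys, so that the controls were the more scattered group.

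In the kynurenine route of the *Myc* cohort, *Kmo* was 0.23 higher on the log2 scale (SE 0.11, edgeR adjusted p = 0.22). Its KO kidneys 1 to 4 lay between 63.0 and 67.4 CPM, above every control, and KO kidney 5 lay at 44.6 CPM, below every control. *Qprt* had 29.9, 29.3, 24.2, 28.9 and 18.8 CPM in KO and 27.7, 32.1, 22.7, 45.6 and 22.7 CPM in control kidneys, which overlapped widely (log2 fold change -0.20, SE 0.19, and -0.0058 without *Myc* control 4). *Haao*, *Kynu*, *Naprt* and *Nadsyn1* had log2 fold changes of -0.044, 0.078, 0.032 and -0.21, with edgeR adjusted p-values from 0.40 to 0.93. The signs of the first 3 turned under other settings, among them the fits without single kidneys, and *Nadsyn1* was at -0.067 without *Myc* control 4. In the same KO kidneys 7 of the 8 proximal tubule markers lay higher and 1 lower. The highest log2 fold change of the 8 was that of *Slc5a12*, 0.69 (adjusted p = 0.14 in edgeR and 0.051 in DESeq2). The others ran from -0.22 to 0.55. The 3 endothelial markers summed to 459.9 to 650.1 CPM in these KO kidneys against 307.8 to 542.8 CPM in controls. The 3 neutrophil markers summed to 103.4 to 193.2 CPM against 36.4 to 165.6 CPM. DESeq2 gave an adjusted p under 0.05 to the endothelial markers *Cdh5* (0.040) and *Kdr* (0.047) and to the podocyte marker *Nphs1* (0.039), all higher. The 3 injury markers summed to 2787 to 3262 CPM in KO and 2543 to 3308 CPM in control kidneys. Of them *Havcr1* had a log2 fold change of -1.32 and *Lcn2*, the other way, 0.39 (edgeR adjusted p = 0.12 and 0.27). Their part in the values of the NAD genes was not tested.

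**Figure D2:**
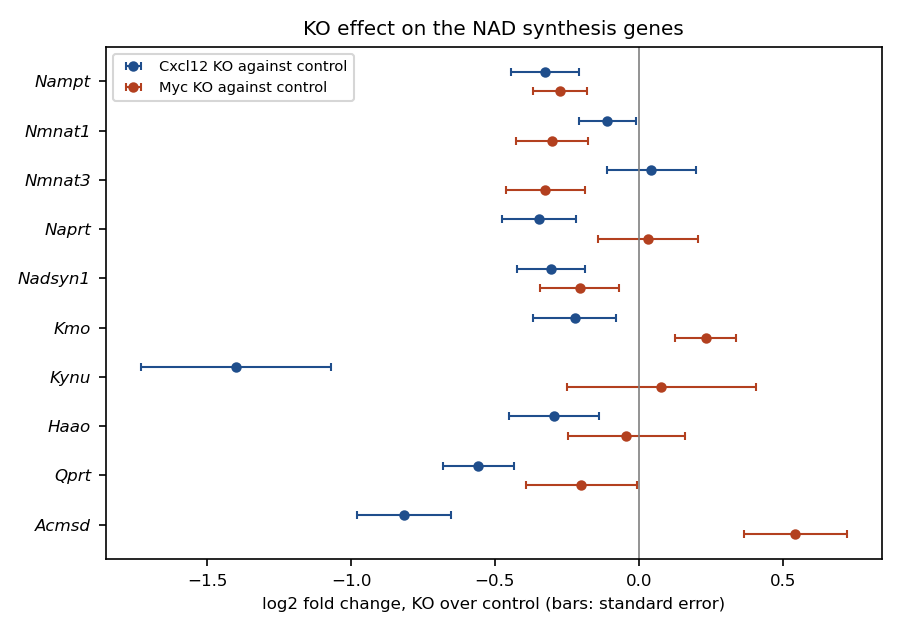
Log2 fold changes of KO over control kidneys for the 10 NAD synthesis genes, from edgeR, with the standard error as bars, *Cxcl12* cohort in blue and *Myc* cohort in red. *Acmsd* lies at -0.82 in one cohort and at 0.54 in the other, while *Nampt* lies at -0.33 and -0.27.

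Whether the 2 deletions differed in effect was tested over all 18 kidneys. In this test 0 of the 10 genes passed edgeR's adjusted threshold (0.0692% of 15903 genes did) and 0 passed limma-voom. *Acmsd* passed DESeq2 as higher, as 0.844% of genes did, and DESeq2 gave 9 of the 10 genes an adjusted p. An unadjusted p under 0.05 in edgeR's test was found for *Acmsd*, *Kynu* and *Kmo*, 3 of the 10, all higher, against 4.62% of all genes higher. The *Myc* KO effect on *Acmsd* exceeded the *Cxcl12* KO effect by 1.35 on the log2 scale (SE 0.26), the 16th smallest p-value of 15903. The adjusted p was 0.058 in edgeR and 0.00057 in DESeq2, with a range from 0.00057 to 0.20 over 24 alternatives. In edgeR fits it passed without *Cxcl12* KO 3, *Myc* KO 5, *Myc* control 1 or *Myc* control 3, each left out alone. The proximal tubule marker *Slc5a12* differed in the same direction, by 1.49 on the log2 scale (adjusted p = 0.079 in edgeR and 0.0048 in DESeq2). It was the largest of the 8 proximal tubule markers. The others differed by 0.12 to 0.55 (edgeR adjusted p from 0.39 to 0.92). The part of these markers in the *Acmsd* difference was not tested. The difference was 1.47 for *Kynu* (SE 0.50, edgeR adjusted p = 0.23, and 0.78 without *Cxcl12* control 1) and 0.45 for *Kmo* (SE 0.19, edgeR adjusted p = 0.35). For *Nampt* it was 0.046 at an SE of 0.15 (edgeR adjusted p = 0.95).

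The levels of the 4 groups were also set side by side. *Acmsd* averaged 25.0 ± 3.5 CPM (SD, n = 3) among *Cxcl12* controls and, for *Myc* KO, 22.3 ± 3.7 CPM (SD, n = 5). The other 2 groups were lower, *Cxcl12* KO at 14.3 ± 3.1 CPM (SD, n = 5) and *Myc* controls at 15.4 ± 3.9 CPM (SD, n = 5). The KO kidneys of each cohort thus lay in the range of the other cohort's controls or close to it, and the 2 control groups lay apart. *Qprt* averaged 45.5 ± 7.3 CPM (SD, n = 3) in *Cxcl12* controls and 26.2 to 31.0 CPM in the other 3 groups. *Kynu* averaged 10.8 ± 7.2 CPM (SD, n = 3) in *Cxcl12* controls and 4.10 ± 0.73 CPM (SD, n = 5) in their KO, and both groups of the *Myc* cohort were lower still, KO at 2.34 ± 1.15 CPM (SD, n = 5) and controls at 2.19 ± 0.71 CPM (SD, n = 5). For *Acmsd*, *Qprt* and *Kynu* alike, the *Cxcl12* controls had the highest mean of the 4 groups. These 3 kidneys also had the lowest sums of injury and of neutrophil markers. Injury markers summed to 1571 to 2368 CPM in them and to at least 2536 CPM in every other kidney. Neutrophil markers summed to 14.7 to 20.3 CPM and to at least 23.2 CPM. The injury marker *Havcr1* did not follow, averaging 624.6 CPM in them against 202.9 CPM in *Myc* KO kidneys. Any part of this in the NAD genes was not tested. The cohorts are separate breedings, so that breeding and floxed gene cannot be told apart between the control groups, and no test was made of them.

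*Qprt* and *Acmsd* act on either side of the branch point, so their levels per kilobase of exon were also set against each other in each kidney. The ratio of *Qprt* to *Acmsd* was 2.30, 2.38, 1.60, 2.92 and 2.82 in *Cxcl12* KO kidneys and 1.63, 2.10 and 2.16 in *Cxcl12* controls. Both genes were lower in these KO kidneys, and the ratios of the groups overlapped. It was 1.49, 1.84, 1.06, 1.41 and 0.751 in *Myc* KO kidneys and 3.07, 1.93, 1.26, 3.65 and 1.45 in *Myc* controls. The lowest ratio of all, in *Myc* KO 5, was the only one under 1. The medians of KO and control kidneys were 2.38 and 2.10 in the *Cxcl12* cohort and 1.41 and 1.93 in the *Myc* cohort. The ratio is given without a test.

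**Figure D3:**
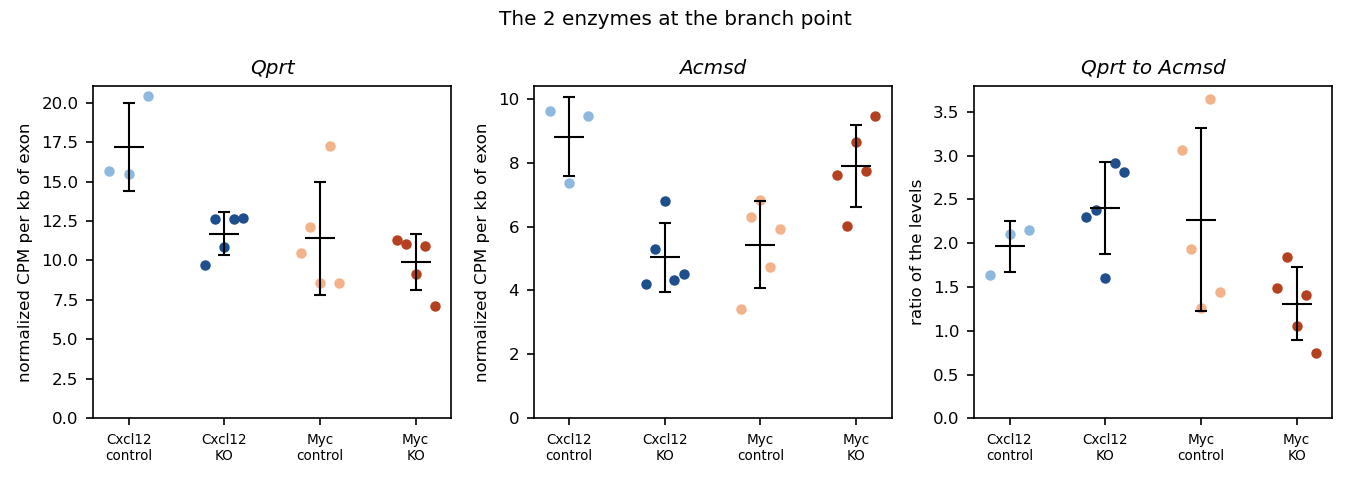
Levels of *Qprt* and *Acmsd* in normalized CPM per kb of exon and the ratio of the 2 levels, with 1 point per kidney and the mean and SD of each group as black bars. The ratio runs from 0.751 to 1.84 in *Myc* KO kidneys and from 1.26 to 3.65 in *Myc* controls.

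Another 34 genes of NAD metabolism were listed, and all but *Pnp*, which was not analysed here, were matched to the counts. *Tdo2* and *Ido1*, which open the kynurenine route from tryptophan, stayed under 1 CPM in every kidney (at most 0.849 and 0.186 CPM). *Ido2*, of the same step, had 1.12 to 5.92 CPM, with log2 fold changes of -0.11 and -0.51 in the *Cxcl12* and *Myc* cohorts at SEs of 0.45 and 0.31. *Nmrk2*, a nicotinamide riboside kinase, and *Sarm1*, an NAD hydrolase of neurons, were as low. Of the genes that passed the filter on low counts, 0 of 27 passed edgeR's adjusted test and 0 passed DESeq2 in the *Cxcl12* cohort, as 0% and 2.38% of all genes did. In that cohort 6 of the 27, 5 lower and 1 higher, had an unadjusted p under 0.05 in edgeR, against 13% of all genes. In the *Myc* cohort 1 of 29 passed edgeR's adjusted test (1.65% of all genes), and 2 of the 26 with an adjusted p passed DESeq2, no larger a share than the 8.76% of all genes. An unadjusted p under 0.05 was found there for 7 of the 29, 4 lower and 3 higher, against 21.9% of all genes. The median log2 fold changes of these lists were -0.11 and -0.051.

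*Parp1* was that gene. It had 37.1, 38.4, 37.7, 39.9 and 35.6 CPM in *Myc* KO kidneys and 51.2, 44.6, 45.6, 51.8 and 46.8 CPM in *Myc* controls. The groups did not overlap, and the KO kidneys were close together. *Parp1* fell by 0.35 on the log2 scale (SE 0.068, adjusted p = 0.030 in edgeR and 0.00042 in DESeq2). The adjusted p ran from 0.00042 to 0.10 over 18 alternatives and stayed under 0.05 in 6 of them. With 1 kidney left out it did so only without *Myc* control 1 or *Myc* control 3 (0.046 and 0.024), and it was highest, 0.10, without *Myc* KO 3. In the *Cxcl12* cohort its log2 fold change was -0.33 (edgeR adjusted p = 0.38), with KO kidneys from 36.3 to 64.4 CPM and controls from 58.4 to 69.1 CPM. *Sirt1*, the nuclear deacetylase that uses NAD, had 58.0, 52.7, 51.1, 43.5 and 58.5 CPM in *Myc* KO kidneys and 47.4, 36.8, 41.7, 36.0 and 37.2 CPM in *Myc* controls. All 5 KO kidneys lay above the control mean and 1 lay below *Myc* control 1. Its log2 fold change was 0.41 (SE 0.10), with an adjusted p of 0.065 in edgeR and 0.011 in DESeq2. In the *Cxcl12* cohort it was 0.28 (edgeR adjusted p = 0.29), again with all 5 KO kidneys above the control mean.

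Among the other consumers of NAD, the mitochondrial deacylases *Sirt3* and *Sirt5* lay lower in *Cxcl12* KO kidneys, by log2 fold changes of -0.37 and -0.42 (edgeR adjusted p = 0.19 and 0.17). For *Sirt5* the groups did not overlap, at 7.04 to 7.99 CPM in KO and 9.68 to 10.5 CPM in control kidneys. *Sirt4*, also mitochondrial, had a log2 fold change of -0.37 in the *Myc* cohort (edgeR adjusted p = 0.15), with KO kidneys at 7.02 to 8.57 CPM below all controls at 8.71 to 13.7 CPM. *Cd38*, the NAD glycohydrolase, had a log2 fold change of 0.52 there (edgeR adjusted p = 0.19). *Nmrk1*, the riboside kinase found in kidney, lay at 25.1 to 33.8 CPM in *Cxcl12* KO and at 36.5 to 41.0 CPM in *Cxcl12* control kidneys, without overlap (log2 fold change -0.42, edgeR adjusted p = 0.17). In this cohort *Aox1*, of nicotinamide clearance, also lay below every control, and *Nadk* lay above every control (log2 fold changes -0.54 and 0.094). Over all genes, the groups did not overlap in 9.68% in the *Cxcl12* cohort and 5.97% in the *Myc* cohort. *Ppargc1a*, a coactivator of mitochondrial genes, had a log2 fold change of -0.34 in the *Cxcl12* cohort (edgeR adjusted p = 0.33). In the *Myc* cohort the kynurenine aminotransferases *Kyat1* and *Aadat*, which divert kynurenine to kynurenic acid, had log2 fold changes of -0.30 and 0.45, and the NAD kinase *Nadk* had -0.18 (edgeR adjusted p from 0.17 to 0.22). For the difference between the effects of the 2 deletions, 4 of 30 genes had an unadjusted p under 0.05, against 11.4% of all genes. They were *Afmid*, the formamidase of the route (0.51), *Nadk* (-0.28), *Sirt3* (0.49) and *Ppargc1a* (0.42), each on the log2 scale as *Myc* minus *Cxcl12*. None of these 4 passed edgeR's adjusted threshold (adjusted p from 0.28 to 0.34) or DESeq2.

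**Figure D4:**
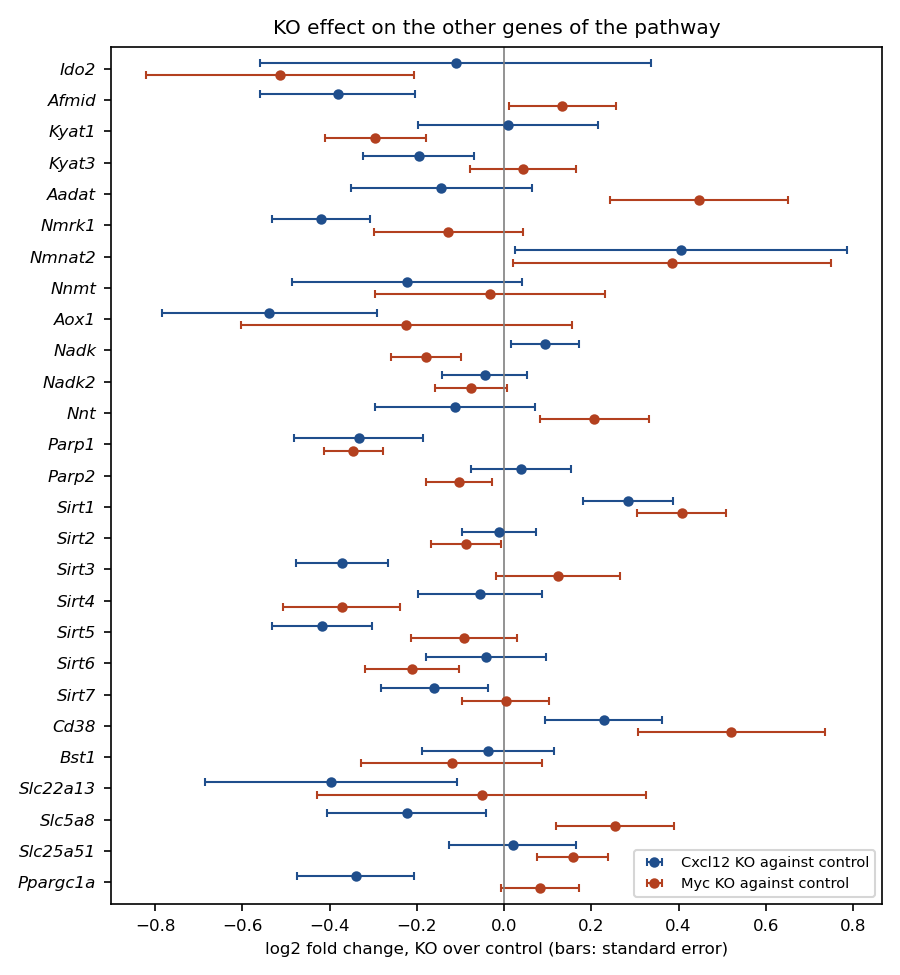
Log2 fold changes of KO over control kidneys for the 27 other pathway genes tested in both cohorts, from edgeR, with the standard error as bars, *Cxcl12* cohort in blue and *Myc* cohort in red. *Parp1* lies at -0.33 and -0.35 and *Sirt1* at 0.28 and 0.41.

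How the 10 genes varied among kidneys of one group was described by the deviations of their log2 CPM from the group mean over all 18 kidneys, for 45 pairs. The correlations were tested by a two-sided permutation of kidneys within groups (100000 resamples) with Benjamini-Hochberg adjustment over the pairs. *Naprt* and *Haao* went together most closely, with a Pearson r of 0.90 (permutation p = 3e-05, adjusted 0.00068) and a Spearman rho of 0.87 (permutation p = 0.0001, adjusted 0.0023). The r was 0.85 without the 2 kidneys farthest from the median of *Naprt*, and 0.86 among the 12 kidneys with 5% or more of reads unmapped. *Qprt* joined them, with an r of 0.84 to *Naprt* and 0.83 to *Haao*. *Nmnat3* correlated with *Qprt* (r = 0.74) and with *Haao* (r = 0.59), and these 5 pairs were the ones with adjusted permutation p-values under 0.05 for both r and rho. *Acmsd* ran against the rest, with an r below 0 to each of the other 9 genes, from -0.49 with *Nmnat3* to -0.092 with *Nadsyn1*. None of these 9 had an adjusted p under 0.05, and that with *Nadsyn1* turned to 0.13 without the 2 farthest kidneys. Points from one kidney share their library and depth.

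**Figure D5:**
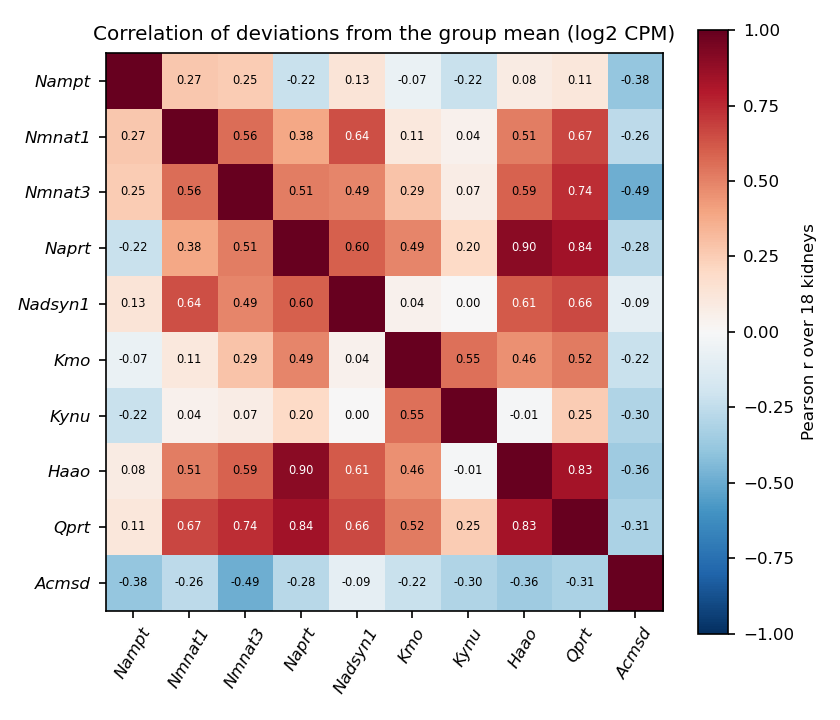
Pearson r between the 10 NAD synthesis genes over 18 kidneys, computed on deviations of log2 CPM from the group mean, with red above 0 and blue below. *Naprt*, *Haao* and *Qprt* form the block of highest values, 0.83 to 0.90, and the row of *Acmsd* is below 0 throughout.

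*Nampt* had r from -0.22 to 0.27 to the genes other than *Acmsd* over all 18 kidneys. Among the 12 kidneys with 5% or more of reads unmapped its r was instead 0.82 with *Haao*, 0.79 with *Nmnat1*, 0.78 with *Qprt*, 0.71 with *Naprt* and 0.60 with *Nmnat3*. Over 15902 other genes, those whose deviations followed *Nampt* most closely were *Eif4g2* (r = 0.94, rho 0.93), *Nt5dc1* (r = 0.90, rho 0.91), *Chuk* (r = 0.89, rho 0.87), *Dr1* (r = 0.88, rho 0.85) and *Nipa2* (r = 0.88, rho 0.83). Without the 2 kidneys farthest from the median of *Nampt* their r was 0.82 to 0.92. Chosen as the highest of so many, they are given without a p. Their own log2 fold changes were 0.018 to 0.20 after deletion of *Cxcl12* and -0.16 to -0.031 after that of *Myc*.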

How the data were processed

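The authors trimmed the reads with Trimmomatic 0.32, aligned them to GRCm38 and deposited raw counts per gene from STAR 2.4.0, without normalization. The release of the annotation and the strandedness of the library kit are not given in the sources used here. The column that ignores strand was used, since each strand column held 51.8% to 52.8% of it. Rows that name no gene held 29.4% to 32.6% of the reads and were left out of all totals. Counts of 2 kidneys of 1 group were never as close as sampling noise alone would leave them, over 33 pairs (chi-square per degree of freedom 5.77 to 69.1), and each was counted as 1 sample. The study's own model used voom and a batch correction whose batches are not named in the labels, so no such term was fitted.

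Low counts were removed per cohort by filterByExpr and libraries were scaled by TMM. KO and control kidneys were compared by edgeR 4.0.16 (quasi-likelihood F-test, R 4.3.3), with Benjamini-Hochberg adjustment over all genes tested and a threshold of 0.05. The difference between KO effects was a contrast over all 4 groups. Standard errors are the log2 fold change divided by the square root of F. Log2 CPM used a prior count of 2. Alternatives were DESeq2 1.42.0, limma-voom (limma 3.58.1), RLE scaling, no filter, a replicate block, a term for kidneys with under 5% of reads unmapped, and leaving out kidneys. edgeR, DESeq2 and limma-voom were also run on simulated data with 200 changed genes. These data had the same spread for every gene and changes larger than most reported here. They therefore do not measure the error rate in the kidney data. Positions and exon lengths come from GENCODE on GRCm38, promoters from RefSeq (GRCm38.p6). Further steps used Python 3.11.15, pandas 2.3.3 and matplotlib 3.10.9.

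The 10 genes and all lists were chosen with earlier results of these data known. Named besides the 10 are the deleted genes, pathway genes with an unadjusted p under 0.05 in any of the 3 edgeR tests, and the 5 genes most correlated with *Nampt*. *Tdo2*, *Ido1*, *Ido2*, *Nmrk2* and *Sarm1*, for their levels, *Aox1*, for its lack of overlap, and 6 marker genes were named after their values were seen. Of the marker lists, 0 genes passed an adjusted edgeR test in either cohort, and the 5 that passed DESeq2 are named with their values. In the *Cxcl12* cohort the loop of Henle (2 of 2) and distal tubule markers (2 of 2) lay lower, and collecting duct (2 of 2), podocyte (2 of 2) and endothelial markers (3 of 3) and 2 of 4 leukocyte markers lay higher. In the *Myc* cohort loop of Henle, distal tubule and podocyte markers (2 of 2 each), endothelial and neutrophil markers (3 of 3 each), 3 of 4 leukocyte, 1 of 2 collecting duct and 1 of 3 injury markers lay higher. The labels number the replicates without naming animals, so p-values measure the spread between these samples.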

Additional observations from a re-analysis of the deposited data

Results flagged for a closer look

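*Kmo* had 1 kidney apart in each KO group, KO 5 at 75.8 CPM in the *Cxcl12* cohort, above its group, and KO 5 at 44.6 CPM in the *Myc* cohort, below its group. *Nmnat1* in *Cxcl12* KO 2 (16.0 CPM) and *Nadsyn1* in *Myc* control 4 (29.2 CPM) also lay above the other kidneys of their groups by a gap that passed Dixon's 95% limit. These were 4 of 30 sets of kidneys examined, where chance passes about 1 in 20.

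The KO effect on *Acmsd* went in opposite directions. All 5 *Cxcl12* KO kidneys lay below their control mean and all 5 *Myc* KO kidneys above theirs. The test of the difference itself gave 1.35 on the log2 scale, with an adjusted p of 0.058 from edgeR's quasi-likelihood test, and its p from 0.00057 to 0.20 over the alternatives has been given above.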

How the results depend on the processing

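The count of the 10 genes that passed in the *Cxcl12* cohort rose from 0 to 3 with DESeq2 and to 3 without a filter (*Acmsd*, *Qprt* and *Kynu* each time). It rose to 1 (*Acmsd*) in the *Myc* cohort with DESeq2, and for the difference between KO effects with DESeq2, without a filter and with a term for mapping class. Leaving out 1 kidney at a time gave 0 to 0 in each cohort and 0 to 1 for the difference. Of the other pathway genes, 2 passed in the *Myc* cohort with DESeq2. Over all genes, the *Myc* count of 246 became 1131 with DESeq2, 954 with the mapping term, 683 with all 4 groups in one fit, 8 among kidneys with 5% or more of reads unmapped, and 21 (without *Myc* KO 2) to 877 (without *Myc* control 3) with 1 kidney left out. The *Cxcl12* count of 0 became 353 with DESeq2, 214 without a filter, 123 with the mapping term, 25 with all 4 groups in one fit, 80 among kidneys with 5% or more unmapped, and 0 to 15 (without *Cxcl12* KO 1) with 1 left out. The count of 11 for the difference became 324 with DESeq2, 3 with limma-voom, 133 with the mapping term and 1 (without *Cxcl12* control 3) to 75 (without *Myc* KO 5) with 1 left out. The cause of these shifts was not tested.

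Taking replicate numbers as a block left 18 genes called in the *Myc* cohort, 0 in the *Cxcl12* cohort and 1 for the difference, and 0 of the 10 genes in each. Deviations of equally numbered kidneys correlated at -0.21 to 0.40, so the numbers were not taken to pair them. Under the block the log2 fold change of *Nmnat3* in the *Cxcl12* cohort was -0.070. It ran from -0.048 to 0.18 with 1 kidney left out.

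In the *Myc* cohort limma-voom gave -0.013 for *Naprt* and -0.033 for *Kynu*, and *Haao* was 0.086 among kidneys with 5% or more unmapped. With 1 kidney left out, *Naprt* ran from -0.051 to 0.15, *Kynu* from -0.24 to 0.26, *Haao* from -0.16 to 0.096, the median of the 10 genes from -0.22 to 0.026, and the difference for *Nampt* from -0.010 to 0.12. In the *Cxcl12* cohort all of the 10 genes but *Nmnat3* kept their direction in every alternative. In the *Myc* cohort all but *Naprt*, *Kynu* and *Haao* did, with *Qprt* coming as near to 0 as -0.0058. Mean levels moved by less than 1 SD without TMM scaling. Depth limits *Kynu* most, at 18 reads in its lowest kidney.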
